A study of Mus musculus with 44 samples.

Results

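The genes described here encode splicing factors and the kinases and cyclins that act on them, in mouse granulosa cells treated with growth differentiation factor 9 (GDF9). They were chosen by symbol: the SR proteins (Srsf), the CDC-like kinases (Clk), the L-type cyclins (Ccnl), the Luc7-like proteins (Luc7l), Leng8, the subunits of the SF3A and SF3B complexes (Sf3a, Sf3b), the pre-mRNA processing factors (Prpf), the heterogeneous nuclear ribonucleoproteins (Hnrnp) and the numbered RNA-binding motif proteins (Rbm). Of 105 genes whose symbols matched, 98 had a mean of at least 10 normalized counts and are called members below, out of 25865 genes with values in the table. The 7 that stayed under this mean were Rbm44, Rbm24, Rbm11, Rbm46os, Rbm3os, Rbm31y and the pseudogene Hnrnpa1l2-ps2. The 98 members include 1 further pseudogene, Rbm3-ps.

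RNA was sequenced from primary granulosa cells, the somatic cells that surround the oocyte, after 4 h with mouse GDF9 or with vehicle, 2 libraries each. According to the study's methods these cells came from Smad3 PA/PA mice, in which both copies of Smad3 carry a PA tag, so that GDF9 and vehicle cells alike carried the tagged allele. The females were immature, of a mixed C57BL/6J and 129S5/SvEvBrd background and primed with a gonadotropin, and their cells were cultured before treatment. In addition, CUT&RUN peak lists of the SMAD3-PA/PA line were used for the histone mark H3K27ac and for SMAD2 and PA-tagged SMAD3, with 2 libraries for each antibody and treatment. For CUT&RUN the methods speak of biological replicates pooled from the cultured cells of 8 mice. For the RNA libraries it is not said whether replicates were separate animals or cultures, and their p-values therefore cover the spread among these libraries alone, which may be technical.

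Intron removal is carried out by the spliceosome, whose parts include the SF3A and SF3B complexes at the branch site and PRPF proteins of the later assembly steps. SR proteins bind exons and favour the use of nearby splice sites, whereas many hnRNP proteins bind introns or exons and can oppose it. The CLK kinases phosphorylate the arginine- and serine-rich tails of SR proteins, and cyclins L1 and L2 are partners of cyclin-dependent kinases that also act in splicing. Several genes of this machinery regulate their own RNA by splicing, as some SR protein genes do through exons that send the transcript to nonsense-mediated decay.

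The libraries held 8827825 to 11416005 reads in genes. Granulosa markers were present at 38500 to 39350 summed normalized counts per library over 14 genes, with Foxl2 at 745, 797, 834 and 826 in the 2 GDF9 and the 2 vehicle libraries, whereas Amh and Cyp19a1 lay below 3 normalized counts in every library. Of the 12 granulosa markers tested, Fst, Esr2 and Hsd17b1 were called higher (log2 fold changes 0.37, 0.33 and 0.29) and Nr5a2 and Kitl lower (-0.29 and -0.30). Markers of other cells summed to 22.2 to 41.6 (endothelium), 101 to 127 (macrophage), 28.7 to 38.1 (oocyte), 178 to 231 (theca, with Insl3 at 0), 1708 to 1785 (stroma) and 2235 to 2396 (surface epithelium), and of the 15 of these genes that were tested limma, edgeR and DESeq2 called 0 (1 at an unadjusted p under 0.05). Of 14 listed nuclear noncoding RNAs, 12 were tested, and 8 of these were called higher with GDF9 (66.7%, against 2.44% of all genes tested). The list was drawn up with earlier results of these data known. The 14 RNAs summed to 0.361% and 0.340% of counts with GDF9 against 0.160% and 0.162% with vehicle. Mitochondrially encoded genes made up 3.38% and 3.07% against 2.37% and 2.35%. Both sums moved with the treatment and with the genes called higher below, and their part in those results was not tested.

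With GDF9, 8 of the 98 members were called higher and 1 was called lower. The genes higher were Leng8, Ccnl1, Ccnl2, Srsf11, Clk2, Clk4, Prpf39 and Hnrnpdl, and the gene lower was Rbm47. A gene was called at an adjusted p under 0.05 (limma, Benjamini-Hochberg over all 12597 genes tested) and a log2 fold change beyond 0.18. By this rule 2.44% of all genes tested were called higher and 0.707% lower, against 8.16% and 1.02% of the members. The members were chosen with earlier results of these data known, so these shares are no independent test. The median log2 fold change was 0.00 over the members and -0.01 over all genes. Both GDF9 libraries lay above both vehicle libraries in 32 members and below them in 28, or 32.7% and 28.6%, where the shares over all genes tested were 22.0% and 23.2%. The members were more abundant, with a median mean of 797 normalized counts against 316 over all genes tested. Shares over all genes tested, here and below, are not matched for level, and the part of level in these gaps was not tested. The calls rested in part on single libraries, since 5 members were called higher and 0 lower without vehicle replicate 1. Leng8, Ccnl1, Ccnl2 and Srsf11 were called under each of the 14 alternatives tried, and the other 5 were not.

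Leng8, which encodes a protein of nuclear RNA processing with a domain shared with mRNA export factors, changed most among the members that were called. It had 1416 and 1369 normalized counts with GDF9 against 776 and 818 with vehicle, so that the groups lay far apart. This is a 1.75-fold higher level (log2 fold change 0.80, SE 0.05, adjusted p = 7.78e-12, limma). The gene lies on the + strand at chr7:4137013-4148177 of GRCm38.p6 with 16 exons, and no other annotated gene overlaps it.

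Both L-type cyclin genes rose. Ccnl1, which encodes cyclin L1, had 634 and 581 normalized counts with GDF9 against 448 and 444 with vehicle (log2 fold change 0.44, SE 0.07, adjusted p = 0.00011, limma). Ccnl2, which encodes cyclin L2, had 767 and 699 against 540 and 554 (log2 fold change 0.42, SE 0.07, adjusted p = 9.37e-05, limma). In both genes the lower GDF9 library was replicate 2, and it was still well above the vehicle libraries. Ccnl1 lies at chr3:65945908-65962029 and Ccnl2 at chr4:155810219-155824543.

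Of the 4 CDC-like kinase genes, 2 were called higher (50%, against 2.44% of all genes tested) and 2 were not called. Clk2 had 399 and 407 normalized counts with GDF9 against 314 and 339 with vehicle (log2 fold change 0.31, SE 0.08, adjusted p = 0.029, limma). Clk4 had 385 and 406 against 325 and 317 (log2 fold change 0.30, SE 0.08, adjusted p = 0.0343, limma). Clk1 had 1002 and 1022 against 897 and 886 (log2 fold change 0.18, adjusted p = 0.0628, limma), and Clk3 had 756 and 723 against 660 and 712 (log2 fold change 0.11, adjusted p = 0.432, limma). In all 4 kinase genes both GDF9 libraries lay above both vehicle libraries, as in 22.0% of all genes tested, though in Clk3 by little. Whether the 4 changes differ from each other was not tested. The calls were lost without vehicle replicate 1 (adjusted p = 0.323 for Clk2 and 0.138 for Clk4) and without GDF9 replicate 2 (0.0764 and 0.141, limma), and DESeq2 on recovered reads called 0 of the 4 kinase genes. They were lost for Clk2 also without GDF9 replicate 1 (adjusted p = 0.0546, limma) and for Clk4 also without vehicle replicate 2 (adjusted p = 0.171, limma). A gene model that is not in the table covers the whole of Clk2 on the same strand, so the reads of the pair may not have been separable.

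Among the 11 SR protein genes, Srsf11 was called higher and 0 lower by limma, edgeR and DESeq2 (0 lower at an unadjusted p under 0.05 as well). Srsf11 encodes an SR-related protein, and it had 1511 and 1475 normalized counts with GDF9 against 1237 and 1171 with vehicle (log2 fold change 0.31, SE 0.05, adjusted p = 0.000153, limma). Srsf5, the SR gene with the highest level per kb of exon, had 2004 and 2240 against 1877 and 1910 (log2 fold change 0.16, adjusted p = 0.0616, limma). It was called without GDF9 replicate 1 (log2 fold change 0.24, adjusted p = 0.000189, limma). The other 9 SR genes had log2 fold changes between -0.12 and 0.12. The founding SR proteins were close to level, with Srsf1 at 2405 and 2393 against 2505 and 2531 and Srsf2 at 1921 and 1897 against 1949 and 1981 normalized counts.

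**Figure D1:**
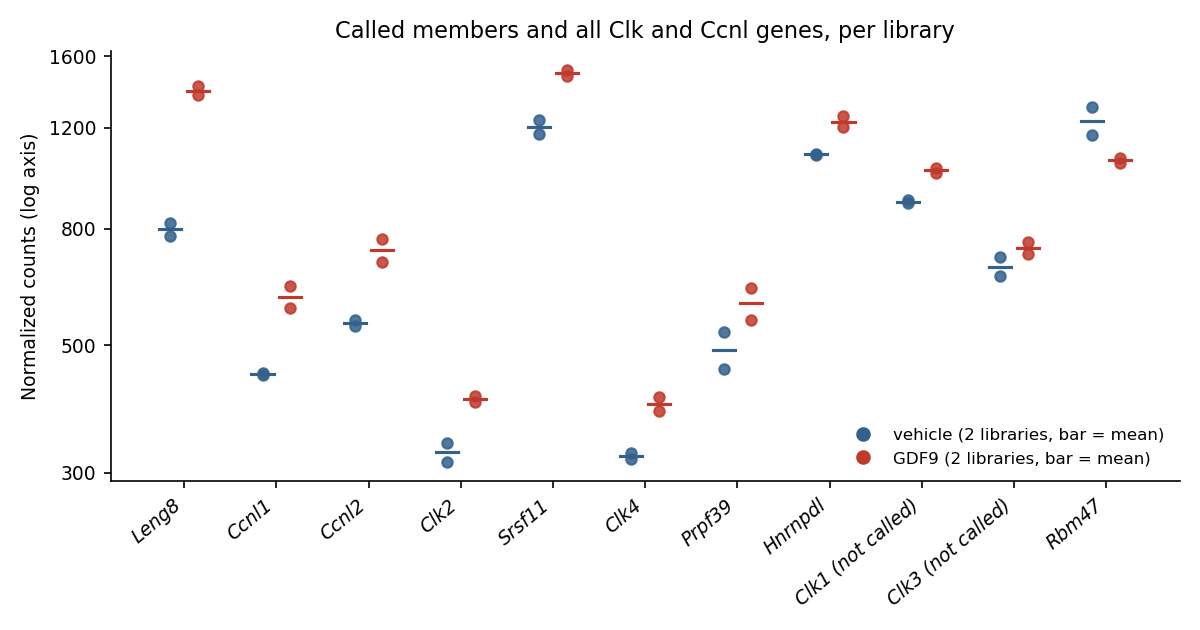
Normalized counts (log axis) of the 9 members that were called and of all Clk and Ccnl genes in each of the 4 libraries, with a bar at the mean of each pair. The 2 GDF9 libraries of Leng8 sit at 1416 and 1369 against 776 and 818 with vehicle, whereas the groups of Clk3 lie next to each other and Rbm47 is the gene with the vehicle libraries on top.

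The hnRNP genes as a group lay slightly lower with GDF9, and only Hnrnpdl among these 20 genes was called. Hnrnpdl, whose protein resembles hnRNP D, had 1201 and 1258 normalized counts with GDF9 against 1077 and 1079 with vehicle (log2 fold change 0.19, SE 0.05, adjusted p = 0.0383, limma). The call was lost without GDF9 replicate 2, vehicle replicate 1 or vehicle replicate 2 (adjusted p = 0.138, 0.257 and 0.181, limma). Of the 20 genes, 17 had a log2 fold change below 0, with a median of -0.09, and in 13 both GDF9 libraries lay below both vehicle libraries (65% of the genes, against 23.2% of all genes tested). These shares are not matched for level, as the median mean was 2367 normalized counts in the 20 genes against 316 over all genes tested. Limma, edgeR and DESeq2 called 0 of the 20 genes lower. At an unadjusted p under 0.05, 8 were lower and 2 higher, and the share of all genes at this limit is not given here. Summed over the 20 genes, the libraries held 52481 and 53520 normalized counts with GDF9 against 56023 and 54470 with vehicle.

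Hnrnpa2b1, the most abundant hnRNP gene per kb of exon, had 6042 and 6394 against 6447 and 6290, and its groups overlap. Hnrnpu, which encodes a scaffold attachment factor, had 6479 and 6542 against 7186 and 6820 (log2 fold change -0.10, adjusted p = 0.117, limma). Hnrnpf had the lowest log2 fold change of the hnRNP genes, at 1155 and 1168 against 1379 and 1241 (log2 fold change -0.17, adjusted p = 0.0803, limma). Hnrnph1 was on the other side, at 3534 and 3576 against 3262 and 3226 (log2 fold change 0.13, adjusted p = 0.0569, limma). Each of these differences is small beside that of Leng8. The median of the hnRNP genes lay between -0.11 and -0.06 over all alternatives, and between 15 and 17 of the genes were below 0. Some hnRNP genes have many processed pseudogenes, so that reads of near-identical copies may have been split.

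**Figure D2:**
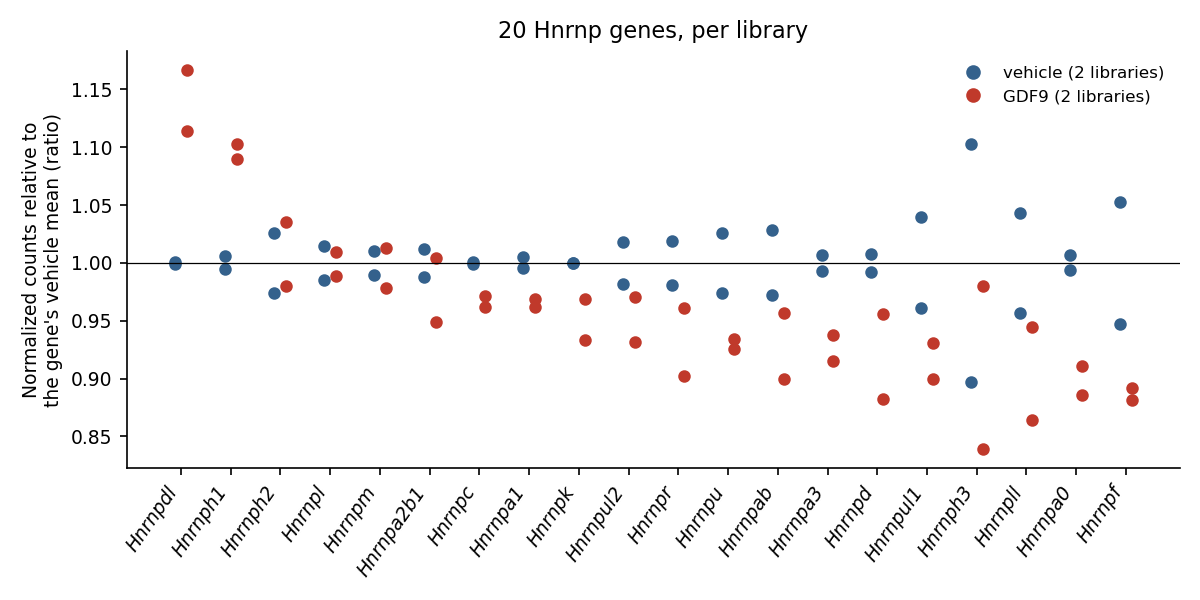
Normalized counts of the 20 Hnrnp genes in each library, as a ratio to the gene's mean over the 2 vehicle libraries, ordered by log2 fold change. Both GDF9 points lie below both vehicle points in 13 genes, and above them in Hnrnpdl and Hnrnph1.

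The Rbm genes, the largest subfamily with 35 members, had 1 gene lower and 0 higher by limma and edgeR, with 2 and 5 at an unadjusted p under 0.05, and 0 of either by DESeq2. Rbm47, which encodes an RNA-binding protein that takes part in RNA editing and splicing, had 1061 and 1043 normalized counts with GDF9 against 1304 and 1164 with vehicle (log2 fold change -0.23, SE 0.06, adjusted p = 0.0163, limma). Without vehicle replicate 1, the higher of its vehicle libraries, it was not called (log2 fold change -0.15, adjusted p = 0.496, limma). Rbm39, the Rbm gene with the highest level per kb of exon and a splicing coactivator, had 2354 and 2357 against 2353 and 2275 and did not pass the test. Rbm20, a regulator of titin splicing in muscle, had the largest log2 fold change of the subfamily at 0.47, but with 11.1 and 16.4 against 9.19 and 9.75 normalized counts its adjusted p was 0.639 (limma). The median of the 35 genes was 0.01. Rbm4 and Rbm4b, Rbm12b1 and Rbm12b2, and Rbm3 and Rbm3-ps are near-identical or closely related pairs, and their separate values are uncertain for that reason.

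Members of the core spliceosome changed little. Of 13 Prpf genes, Prpf39 was called higher and 0 lower by limma and edgeR (2 and 1 at an unadjusted p under 0.05, and 0 called by DESeq2). Prpf39, which encodes a factor of the U1 snRNP, had 629 and 554 normalized counts with GDF9 against 528 and 455 with vehicle (log2 fold change 0.27, SE 0.08, adjusted p = 0.0464, limma). The call was lost without GDF9 replicate 1 (log2 fold change 0.18, adjusted p = 0.334, limma) and without vehicle replicate 2 (log2 fold change 0.16, adjusted p = 0.461, limma). The remaining Prpf genes ranged from -0.16 for Prpf38a to 0.17 for Prpf40b on the log2 scale. Prpf8, which encodes a large protein at the heart of the spliceosome and is the Prpf gene with the highest level per kb of exon, had 4433 and 4180 against 4199 and 4156. Prpf39 overlaps Fkbp3 on the opposite strand by 955 bases, Hnrnpdl overlaps Enoph1 by 909 and Clk4 overlaps BC049762 by 549, and although the libraries were strand-specific, the strand option used in counting is not given, so whether reads there were kept apart is unknown.

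The 9 genes of SF3A and SF3B, which recognise the branch site with the U2 snRNP, had 0 calls by limma, edgeR or DESeq2 (1 lower at an unadjusted p under 0.05) and log2 fold changes between -0.10 and 0.10. Sf3b1 had 3352 and 3240 normalized counts with GDF9 against 3509 and 3371 with vehicle, and Sf3a1, with the largest change of SF3A, 1457 and 1448 against 1539 and 1585 (log2 fold change -0.10, adjusted p = 0.285, limma). Sf3b2 had 2058 and 2076 against 2074 and 2027, and Sf3a3 had 727 and 760 against 755 and 759. The groups of both genes overlap. The 3 Luc7l genes, which encode U1-associated proteins, had 0 calls by the same tools (1 higher at an unadjusted p under 0.05), at log2 fold changes of 0.14 (Luc7l), 0.08 (Luc7l3) and 0.05 (Luc7l2).

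**Figure D3:**
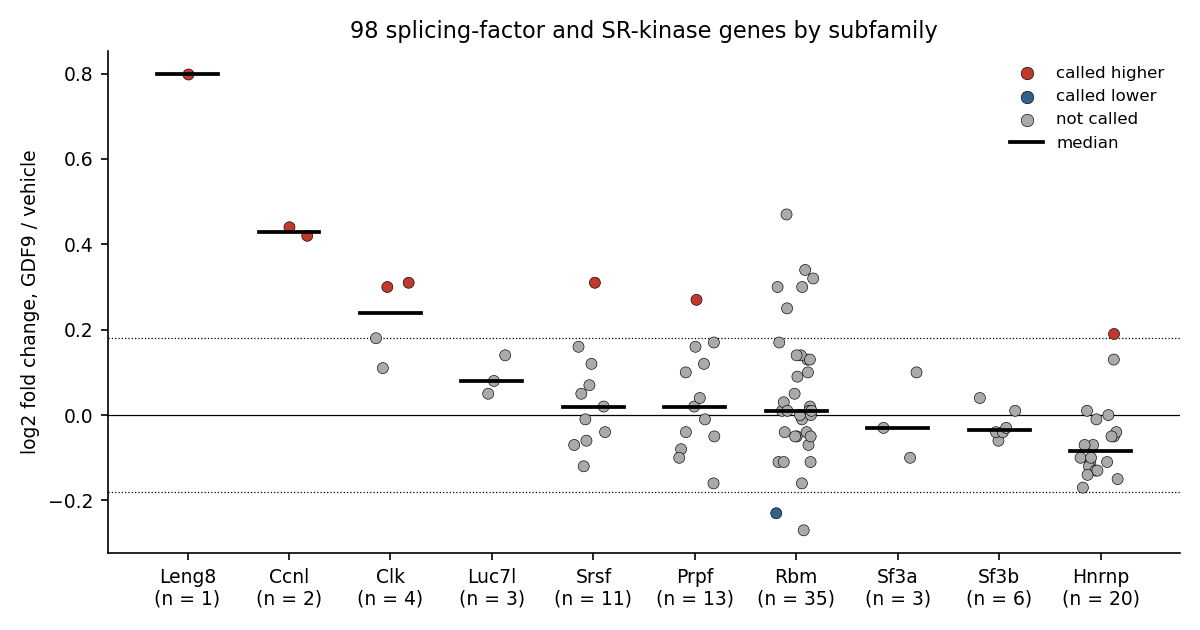
Log2 fold change of GDF9 against vehicle for the 98 members by subfamily, with the median as a black bar and dotted lines at the limits of 0.18 in either direction. The Leng8, Ccnl and Clk genes all lie above 0, and the Hnrnp median lies at -0.09.

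Compared across subfamilies, the median log2 fold change was 0.80 for Leng8 (1 gene), 0.43 for Ccnl (2), 0.24 for Clk (4), 0.08 for Luc7l (3), 0.02 for Srsf (11) and Prpf (13), 0.01 for Rbm (35), -0.03 for Sf3a (3), -0.04 for Sf3b (6) and -0.09 for Hnrnp (20). Leng8, Ccnl and Clk, the 3 subfamilies with the highest medians, were pooled with these values known. What follows for their 7 genes is therefore no separate support. The 7 genes account for 5 of the 8 members called higher (71.4% of the 7, against 2.44% of all genes tested). In each of the 7 both GDF9 libraries lay above both vehicle libraries, as in 22.0% of all genes tested. Their summed level was 5359 and 5206 normalized counts with GDF9 against 3960 and 4070 with vehicle. Of the other 91 members, 3 were called higher and 1 lower (3.3% and 1.1%, against 2.44% and 0.707% of all genes tested). These 91 summed to 118203 and 119539 against 121411 and 119263, and these ranges overlap. The differences between subfamilies were not tested, since genes of 1 subfamily are not replicates.

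Levels of single genes are compared with each other per kb of exon, whereas the median means of gene sets above are not per kb. Per kb of exon the highest member of each subfamily was Hnrnpa2b1 with 2582 normalized counts per kb, Srsf5 with 1209, Rbm39 with 740, Sf3b2 with 637, Prpf8 with 567, Sf3a3 with 442, Clk3 with 388, Luc7l3 with 295 and Ccnl2 with 262, and Leng8 had 209. Hnrnpab, at 2575, differed from Hnrnpa2b1 by less than the range over libraries. The other members called higher lay between 126 for Prpf39 and 428 for Srsf11, with 157 for Clk2, 166 for Clk4, 227 for Ccnl1 and 404 for Hnrnpdl. Exon length here is that of all annotated exons joined, so a gene with long or rarely used exons has a lower value.

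Transcripts annotated as retaining an intron were common among the members, called or not. All 8 members called higher had at least 1 such transcript in GENCODE, against 62 of the other 90 members (68.9%), 63.8% of all genes called higher and 58.8% of all genes tested, and the median number of such transcripts was 5 against 1.5, 1 and 1. The uncalled Clk1 and Clk3, with 7 and 4, and all 3 Luc7l genes had them too. A transcript annotated for nonsense-mediated decay was listed for 7 of the 8 (87.5%), with Leng8 the exception, for 45.6% of the other members, 36.2% of all genes called higher and 28.4% of all genes tested. Srsf11 had the most intron-retaining transcripts of the 8, at 11, and Ccnl1 had 8. The uncalled Hnrnpk and Rbm5 had more, at 13 each. The 8 genes had more annotated transcripts, at a median of 10.5 against 5 over all genes, and a gene with more transcripts has more chances to hold either kind. The counts are per gene, so no transcript with a retained intron was measured here.

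A list of 149 other splicing genes, set up by role, places the members beside the rest of the machinery. It was drawn up with earlier results of these data known, so its shares describe the list and are no independent test. Of 143 tested, 8 were called higher (5.59%, against 2.44% of all genes tested) and 0 lower by limma, and edgeR called 8 and 0 and DESeq2 5 and 0. At an unadjusted p under 0.05, 16 were higher and 11 lower. The list holds 24 genes of proteins with RS domains, and these gave 6 of the 8 calls (25% of the 24, against 2.44% of all genes tested). Nktr, a cyclophilin with RS repeats, had 1297 and 1240 normalized counts with GDF9 against 904 and 893 with vehicle (log2 fold change 0.50, adjusted p = 1.73e-07, limma). Pnisr had 779 and 774 against 587 and 559 (log2 fold change 0.44). Srrm2, a large scaffold protein of nuclear speckles, had 7355 and 6588 against 5255 and 5149 (log2 fold change 0.42, adjusted p = 1.82e-08, limma). The other RS genes called were Rsrp1 (0.39), Srek1 (0.25) and Acin1 (0.18). In each of the 6 RS genes called the groups lie apart. Srek1 and Acin1 were not called by DESeq2 on recovered reads or without the filter on low values. The median of the 24 RS genes was 0.06, and in 12 of them (50%, against 22.0% of all genes tested) both GDF9 libraries lay above both vehicle libraries.

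Outside the RS genes, Tial1, which encodes a regulator of 5' splice site use, had 611 and 577 normalized counts with GDF9 against 453 and 486 with vehicle (log2 fold change 0.34, adjusted p = 0.00309, limma). Snrnp70, the 70K protein of the U1 snRNP, had 2089 and 2082 against 1654 and 1796 (log2 fold change 0.27, adjusted p = 0.000326, limma). Among helicases (14 tested), kinases other than CLK (9), factors of the 3' splice site (10) and factors of spliceosome activation (25), limma, edgeR and DESeq2 called 0 genes, with 3, 0, 1 and 0 higher and 1, 0, 0 and 1 lower at an unadjusted p under 0.05. Without vehicle replicate 1, 4 of the 8 genes were called, as Acin1, Snrnp70, Srek1 and Tial1 were lost (adjusted p = 0.246, 0.0625, 0.376 and 0.0924, limma). Of the nuclear noncoding RNAs that moved with these genes, Malat1, which is kept in nuclear speckles, had 28820 and 26910 against 10980 and 11150 (log2 fold change 1.33) and Neat1, of paraspeckles, 2299 and 2334 against 1430 and 1558 (0.63). The others called were Kcnq1ot1 (2.32), Mirg (1.47), Meg3 (1.14), Snhg11 (0.98), Firre (0.65) and Rian (0.40). The 4 tested but not called were Airn (0.74), Ftx (0.70), Snhg14 (0.29) and Tug1 (0.00).

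**Figure D4:**
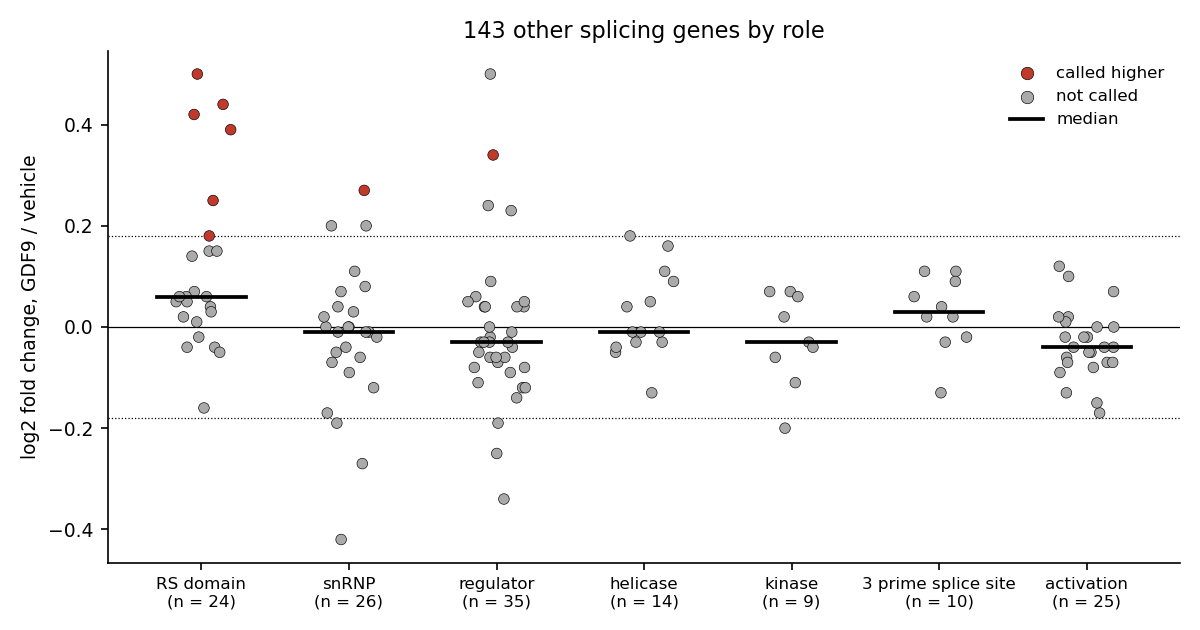
Log2 fold change of GDF9 against vehicle for the 143 other splicing genes by role, with the median as a black bar and dotted lines at 0.18 in either direction. Of the 8 genes called higher, 6 lie in the RS domain column, where Nktr is highest at 0.50.

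The promoters of the members were compared with CUT&RUN regions, which are places where the peaks of both replicates overlap, within 3 kb of a start site. H3K27ac, a mark of active promoters and enhancers, was found at 87 of the 98 members (88.8%) with GDF9 and at 87 with vehicle, against 69.3% and 69.4% of 12531 genes tested. These shares, too, are not matched for RNA level. All 9 members that were called had a region in both treatments, and so did Clk1 and Clk3. Members without one with GDF9 were Prpf40b, Rbm10, Rbm19, Rbm20, Rbm3, Rbm3-ps, Rbm43, Rbm46, Rbm48, Sf3b5 and Srsf12, some of them with few RNA counts.

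The height of the H3K27ac peak at the promoter, as the highest spike-in-scaled coverage in a peak, differed little between treatments at the members called higher. At Leng8 it was 24.9 and 30.4 with GDF9 against 26.5 and 26.02 with vehicle, at Ccnl1 23.8 and 32.2 against 22.9 and 30.4, and at Srsf11 29.4 and 35.8 against 24.1 and 34.7. At Ccnl1 and Srsf11 the 2 libraries of a treatment differ by more than the means of the treatments do. The median log2 ratio was 0.06 over the 8 members, from -0.25 for Ccnl2 to 0.36 for Clk4, against 0.05 over 8120 genes with a peak in all 4 libraries. No test was run on these heights.

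Regions of SMAD2 lay at 18 members with GDF9 (18.4%, against 11.1% of genes tested) and at 1 with vehicle (1.0% against 0.8%). Among the called members and all Clk and Ccnl genes, only Clk4 had one. The others were 7 Hnrnp genes (Hnrnpa1, Hnrnpa2b1, Hnrnpc, Hnrnph2, Hnrnpl, Hnrnpul1 and Hnrnpul2), 6 Rbm genes (Rbm12b1, Rbm12b2, Rbm15, Rbm18, Rbm34 and Rbm42), Sf3b3, Sf3b6, Prpf31 and Srsf7. The vehicle value rests on replicate 2, whose list held 23082 peaks against 78699 to 81283 in the GDF9 lists and 78766 in vehicle replicate 1. With peaks of vehicle replicate 1 alone 44 members had SMAD2 at the promoter (44.9%, against 28.4% of genes tested), and with those of replicate 2 alone 9 (9.2% against 6.1%). With GDF9 the values were 38 and 40 (38.8% against 30.9%, and 40.8% against 31.8%), so that no difference between treatments can be read from these lists. A region of PA-tagged SMAD3 lay at 1 member with GDF9, Rbm12b1, and at 0 with vehicle, against 0.7% of genes tested in either treatment, and with peaks of 1 replicate alone the values were 10 and 10 with GDF9 (10.2% against 7.4% of genes tested in both) and 4 and 20 with vehicle (4.1% against 8.5%, and 20.4% against 14.9%).

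**Figure D5:**
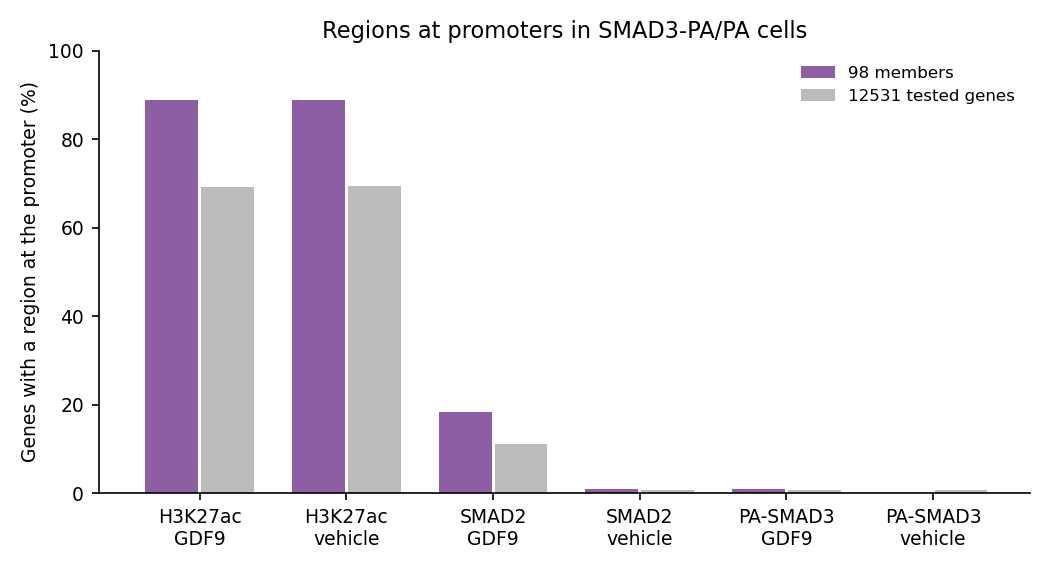
Share of genes with a CUT&RUN region within 3 kb of a start site, for the 98 members and for the 12531 genes tested with a start site, by antibody and treatment in SMAD3-PA/PA cells. H3K27ac lies at 88.8% of the members in both treatments, and SMAD2 at 18.4% with GDF9 and 1.0% with vehicle, where the second vehicle list was short.

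The promoters of the 4 genes called under every alternative, and of Clk4, which had the SMAD2 region, are shown as examples. Those of Clk2, Prpf39 and Hnrnpdl, also called higher, are not printed. The genes shown were picked from those called higher, and whether they share a cause was not tested. Each window runs from 250 bases before a RefSeq start to 50 bases after it on GRCm38.p6, 5' to 3' on the gene's strand. Capitals mark the letters TGACG, the core of the cAMP response element, and CCGGAA, the core that ETS factors bind, on either strand. For Leng8 and Srsf11, which have 2 windows each, the one furthest upstream is printed. The window not printed holds no TGACG in either gene, and that of Srsf11 holds CCGGAA.
Leng8 (chr7:4136806-4137105, + strand): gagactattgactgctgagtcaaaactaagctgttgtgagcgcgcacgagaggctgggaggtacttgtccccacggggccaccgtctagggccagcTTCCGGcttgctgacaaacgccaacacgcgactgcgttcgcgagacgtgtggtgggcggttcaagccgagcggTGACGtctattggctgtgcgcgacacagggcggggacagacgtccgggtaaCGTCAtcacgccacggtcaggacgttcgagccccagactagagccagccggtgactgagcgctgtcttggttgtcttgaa
Ccnl1 (chr3:65958200-65958499, - strand): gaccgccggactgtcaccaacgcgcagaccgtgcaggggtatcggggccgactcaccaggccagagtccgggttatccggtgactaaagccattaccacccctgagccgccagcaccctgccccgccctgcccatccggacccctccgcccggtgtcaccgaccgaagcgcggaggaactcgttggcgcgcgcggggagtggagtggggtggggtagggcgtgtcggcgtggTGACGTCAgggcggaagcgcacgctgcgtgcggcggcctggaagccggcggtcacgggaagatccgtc
Ccnl2 (chr4:155812239-155812538, + strand): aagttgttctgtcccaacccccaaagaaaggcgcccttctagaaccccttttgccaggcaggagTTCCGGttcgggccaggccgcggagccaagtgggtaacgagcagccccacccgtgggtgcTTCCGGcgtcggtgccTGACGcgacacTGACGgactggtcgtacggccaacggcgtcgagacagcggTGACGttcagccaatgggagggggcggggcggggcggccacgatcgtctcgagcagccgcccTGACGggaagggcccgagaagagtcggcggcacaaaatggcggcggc
Srsf11 (chr3:158036557-158036856, - strand): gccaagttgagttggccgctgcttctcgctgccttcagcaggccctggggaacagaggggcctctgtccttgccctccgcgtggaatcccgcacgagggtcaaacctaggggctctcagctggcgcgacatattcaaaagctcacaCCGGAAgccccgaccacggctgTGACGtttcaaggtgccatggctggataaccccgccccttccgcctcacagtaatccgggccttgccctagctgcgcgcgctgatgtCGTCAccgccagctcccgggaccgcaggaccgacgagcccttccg
Clk4 (chr11:51262864-51263163, + strand): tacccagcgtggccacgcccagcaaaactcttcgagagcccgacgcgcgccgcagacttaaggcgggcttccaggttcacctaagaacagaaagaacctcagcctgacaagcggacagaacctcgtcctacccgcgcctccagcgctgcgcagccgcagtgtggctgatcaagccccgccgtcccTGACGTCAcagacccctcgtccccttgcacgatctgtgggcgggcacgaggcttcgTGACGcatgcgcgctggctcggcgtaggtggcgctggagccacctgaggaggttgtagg

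Windows on chromosome 18, where Rbm22 and Rbm27 lie, were left out of all counts here. The remaining windows covered 82 of the 98 members, all 9 that were called and 10019 genes tested. The letters TGACG stood in a window of 7 of the 8 members called higher (87.5%), all but Hnrnpdl, against 51.2% of the members, 35.5% of genes tested and 20.8% of all 32851 windows. The whole element, TGACGTCA, which contains TGACG, was found in Ccnl1 and Clk4, and in 3.6% of genes tested. CCGGAA was found in 3 of the 8 (37.5%), against 43.9% of the members and 31.6% of genes tested. The short SMAD element CAGAC was found in 4 of the 8 (50.0%) against 52.2% of genes tested, and the SMAD palindrome GTCTAGAC in 0 of the 8 against 0.3%. The GC box GGGCGG stood in all 8 (100.0%) against 70.3%. Further motifs searched were TGCGCA (37.5% of the 8 against 16.3% of genes tested), CCAAT (37.5% against 43.1%), CACGTG (25.0% against 12.1%), AAGATGG (0.0% against 8.3%) and TATAAA (0.0% against 8.3%). In all, 11 motifs were searched on both strands, and the 2 in capitals were chosen after these shares were seen. A gene with several windows counts if any holds the letters, and a match is not a measured site.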

How the data were processed

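RNA-seq libraries of granulosa cells, 2 with GDF9 and 2 with vehicle, were compared. The authors aligned reads to mm10 with STAR 2.7.11b, counted them with featureCounts 2.1.1 and deposited counts divided by 1 DESeq2 (1.48.2) size factor per library, entered here as a normalized signal. For counting, the sources used here give neither annotation nor strand setting. Whole reads were recovered from the steps between values (100.0% whole within 0.05). Of 27179 entries, 1314 had no values per library, 3 columns without a header were not used, and a further column holds the authors' mean. The CUT&RUN peak lists deposited by the authors hold spike-in-scaled signal (coverage) per peak and were called per replicate.

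Genes with a mean of at least 10 were tested with limma 3.58.1 (empirical Bayes with trend, R 4.3.3) on log2(value + 1), where low genes show smaller changes, without covariates. Alternatives used pseudocounts of 0.5 and 5, no filter or a mean of at least 50, other scalings, edgeR 4.0.16 and DESeq2 1.42.0 on recovered reads, adjusted p alone, a replicate block and each library left out. Counts at an unadjusted p under 0.05 are given without the share over all genes, so they cannot show that a set stands out. Between the 2 replicates the chi-square per degree of freedom was 1.97 (GDF9) and 1.31 (vehicle). Named genes were all called members, Leng8, all Clk and Ccnl genes, the most abundant and the most changed gene of each subfamily, up to 10 called genes of the other splicing list and called nuclear noncoding RNAs, and others were chosen after their values were seen. Members and lists were chosen with earlier results of these data known. Promoters, exons and sequences came from RefSeq (GRCm38.p6) and transcript types from GENCODE. Tables and figures were made with Python 3.11.15, pandas 2.3.3 and matplotlib 3.10.9.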

Additional observations from a re-analysis of the deposited data

How the results depend on the processing

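The 8 members called higher and 1 called lower numbered 4 and 0 both without the filter on low values and with DESeq2 on recovered reads, where Clk2, Clk4, Hnrnpdl, Prpf39 and Rbm47 were lost. With 1 library left out, 5 to 7 were higher and 0 to 2 lower, and the lone library was assumed to vary like the other group. Other splicing genes called higher numbered 5 with DESeq2 and 4 to 8 with 1 library left out, and 0 to 2 were lower. Other alternatives stayed within 1.5 times. Deviations of same-numbered libraries had a correlation of 0.005. Since such deviations hold counting noise, this cannot decide whether the numbers mark pairs. With the replicate block 10 members were higher, with Clk1 and Rbm12b1 added, and 1 lower. For 38 named genes, 490 values kept their direction and call, 35 lost the call, 2 gained it and 3 changed sign (any change of the unrounded value), in the uncalled genes Hnrnpa2b1 (-0.08 to 0.01 with 1 library left out), Sf3a3 (-0.06 to 0.00) and Sf3b2 (-0.00 to 0.03). Left-out replicates gave SMAD2 regions at 38 to 40 members and PA-SMAD3 at 10 with GDF9. PA-SMAD3 lay at 0 members with promoters of 1 kb or with at least 50% of both peaks shared. H3K27ac lay at 76 to 90 with GDF9 and 74 to 89 with vehicle. The cause of these shifts was not tested. Rbm20, among the members with the fewest counts, had an SE of 0.41 on the log2 scale against 0.05 for Leng8, and the part of depth in this was not tested.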
